A study of Mus musculus with 26 samples.

Results

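Wild-type mouse striatum at 1 year of age was compared with wild-type striatum at 8 weeks. The striatum is the forebrain nucleus whose projection neurons use GABA and receive dopamine. The 2 ages take 6 of the 26 RNA sequencing libraries of a study of Huntington's disease mouse models, 3 libraries for each age. The 1-year wild types are listed with the CHL2 model and the 8-week wild types with the R6/1 model, so age, source colony and the table a value came from cannot be told apart. Neither group carries a model allele or received a treatment, as far as the labels say. Strain and sex were not given by the labels. Levels from 4 further pools are given beside them: wild type at 4 weeks (3 libraries, listed with R6/1), wild type at 10 weeks given a control adeno-associated virus (AAV, 2 libraries), CHL2 at 1 year (3 libraries) and R6/1 at 8 weeks (3 libraries). R6/1 is a transgenic line that expresses the first exon of mutant human huntingtin. CHL2 is a further mouse model of Huntington's disease in the study.

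The authors' deposited tables hold 1 pooled FPKM value (fragments per kilobase of transcript scaled to library size) for each gene and group. The 3 libraries of an age are therefore seen as a single number, the spread between animals is unknown, and no test, SD or p-value could be given. Genes were taken when their symbol stood on a single row of both the 1-year and the 8-week table. The 2 columns were scaled to the same median over the 14160 shared rows, 18 small RNA rows were left out, and 52 genes with a mean below 0.5 FPKM were dropped. This left 14090 genes. All levels below are scaled FPKM, and a change is the difference in log2(FPKM + 1) between 1 year and 8 weeks. The words rose and fell are kept for genes at least 1.5-fold higher or lower on that scale, which describes these 2 pools and is not a test.

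Oligodendrocytes wrap axons in myelin and arise from precursor cells through a short-lived newly formed stage, marked in mouse by the receptor Gpr17. Microglia are the resident immune cells of the brain and the main source of C1q, the first component of the complement cascade, while MHC class I molecules with B2m display peptides on the cell surface and are induced by interferon. Astrocytes clear glutamate and raise the filament protein Gfap when they become reactive. In bulk tissue, fewer cells of a type and less RNA per cell cannot be told apart.

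Of the 14090 genes, 202 rose (1.43%) and 212 fell (1.5%), together 2.94%. The median change over all genes was 0.01, and 95% of genes lay between −0.51 and 0.50. Above 0 lay 7323 of the 14090 genes and below 0 lay 6767 (48.0%), the background for the list counts below. At 2-fold, 32 genes were higher (0.227%) and 11 lower (0.0781%). For scale, R6/1 and wild type at 4 weeks, which stand in the same table, differed by at least 1.5-fold in 0.2% of 13987 genes, and wild type at 8 weeks differed from wild type at 4 weeks in 2.33% of 14010 genes. The genes at the edge of the limit were Rps21 and Rpl18 above 0, at 0.60 and 0.58, and Pde10a and Nrgn below 0, at −0.59 and −0.58. Without scaling, 330 genes were at least 1.5-fold higher and 133 lower, and the median change of all genes was 0.08.

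**Figure D1:**
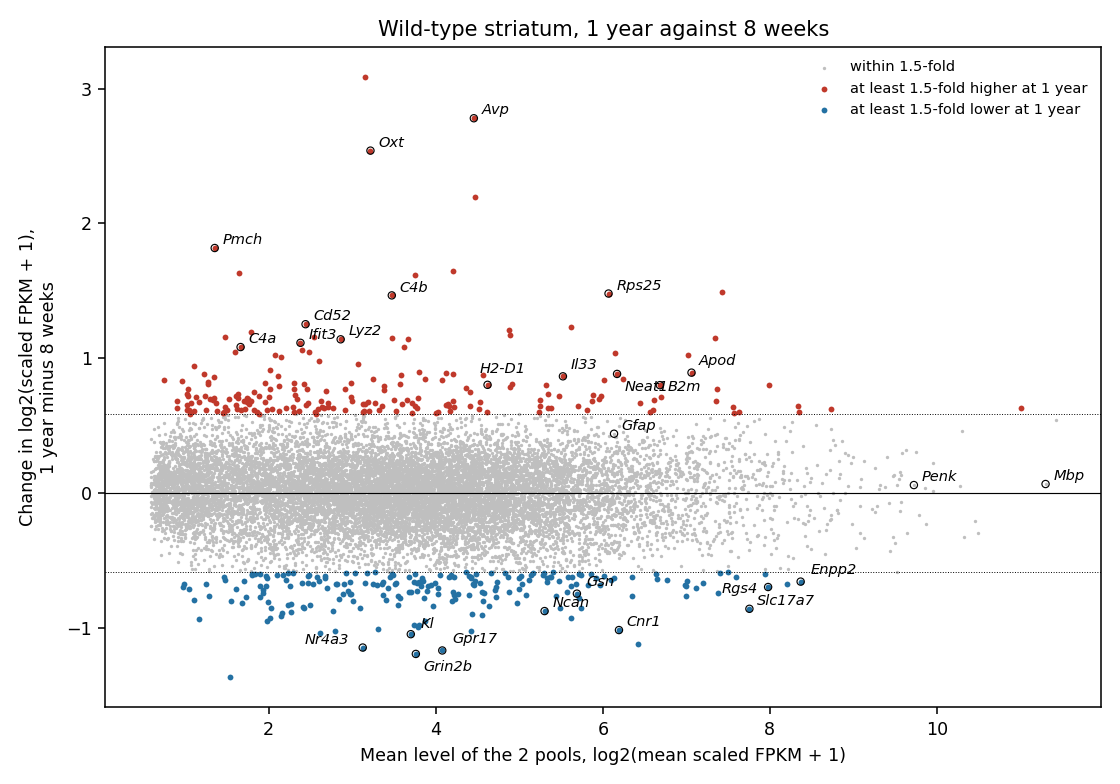
Change between the 1-year and the 8-week wild-type pool for 14090 genes, as the difference in log2(scaled FPKM + 1), against the mean level of the 2 pools; dotted lines mark 1.5-fold. Avp, Oxt and C4b lie high above 0 and Grin2b, Gpr17 and Cnr1 lie below −1, while the abundant myelin gene Mbp lies within 1.5-fold.

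Both pools carried the marks of striatum. Ppp1r1b, the dopamine-regulated phosphatase inhibitor DARPP-32, stood at 860 FPKM at 1 year, against 1008 FPKM at 8 weeks. Penk, the enkephalin precursor of indirect-pathway neurons, stood at 862 FPKM at 1 year, against 827 FPKM at 8 weeks. Drd2, the dopamine receptor of the same neurons, stood at 80.2 FPKM at 1 year, against 107 FPKM at 8 weeks. All 3 genes lay within 1.5-fold between the ages. Htt, the gene altered in Huntington's disease, was at 17.8 FPKM at 1 year, against 22.4 FPKM at 8 weeks. The Y-linked gene Ddx3y was present in both pools, at 18.5 FPKM at 1 year, against 15.9 FPKM at 8 weeks. None of the 4 Y-linked genes tested changed by 1.5-fold. The other 2 genes of that list, which also covers X inactivation, could not be tested.

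3 features of the pools moved with the comparison and stand before its results. First, the change followed transcript length, with a Spearman correlation of −0.53 over 13929 genes, all measured in the same 2 pools. The median change ran from 0.25 in the bin of shortest genes (median 844 bases) to −0.26 in the bin of longest genes (median 10040 bases). The median length was 1587 bases for the genes that rose and 5720 bases for those that fell, against 3435 bases for all genes. Other pairs of pools showed trends of their own: the correlation was 0.49 over 12726 genes for wild type at 1 year minus the injected 10-week pool, and 0.43 over 13875 genes for wild type at 8 weeks minus 4 weeks. Levels set in a series of ages below carry these trends too. With the median of each of 20 length bins subtracted, 122 genes (0.876%) were at least 1.5-fold higher and 149 (1.07%) lower. The part of this trend in any one result below was not tested, so the length-adjusted value is given where it ends the call of a gene described below. Rps21, named above, was at 0.34 after it.

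**Figure D2:**
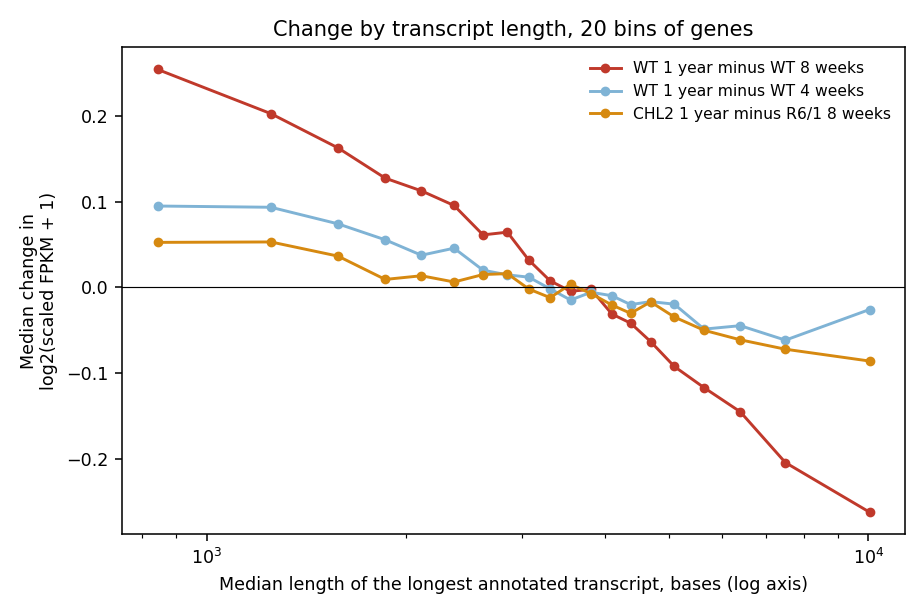
Median change in 20 bins of genes by the length of their longest annotated transcript (log axis), for WT 1 year minus WT 8 weeks, WT 1 year minus WT 4 weeks and CHL2 1 year minus R6/1 8 weeks. The wild-type 8-week comparison runs from 0.25 to −0.26, and the lines of the other pools, the first of which shares the 1-year pool, are flatter. The injected 10-week pool is not drawn.

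Second, genes of neighbouring tissues differed between the pools. Of 24 choroid plexus and ependyma genes, 1 rose and 12 fell, with a median of −0.59. Against the 4-week pool the median was 0.28, the other way. The rise was Tmem212, an ependymal gene, at 0.81, or 0.56 with length bins subtracted. Kl, the choroid plexus gene for klotho, stood at 5.04 FPKM at 4 weeks, 16.5 FPKM at 8 weeks, 2.39 FPKM in the injected 10-week pool and 7.48 FPKM at 1 year. The choroid plexus potassium channel gene Kcnj13 stood at 3.84, 17.4, 2.86 and 8.38 FPKM in the same 4 pools. The 8-week pool was thus the highest of the 4 for both genes, and the 1-year pool was higher than the 4-week pool. Of 17 cortical excitatory neuron genes, 0 rose and 4 fell, and all 17 lay below 0, with a median of −0.44. They included Slc17a7, Nr4a2 and Tbr1. Slc17a7, the vesicular glutamate transporter of cortical neurons, stood at 153 FPKM at 1 year, against 277 FPKM at 8 weeks. The last feature was that 5 of 18 hypothalamic, septal and preoptic genes rose and 0 fell, with all 18 above 0 and a median of 0.44. Against the 4-week pool the median was −0.49, the other way. The 5 were Avp, Oxt, Pmch, Cartpt and Zic1. Cartpt changed by 0.71, but by 0.50 with length bins subtracted and by −0.47 against the 4-week pool. Avp, the vasopressin gene of the hypothalamus, stood at 37.3 FPKM at 1 year, against 4.58 FPKM at 8 weeks. The 4-week pool held 13.8 FPKM of Avp and the injected 10-week pool 38.7 FPKM, near the 1-year level. The oxytocin gene Oxt stood at 14.9 FPKM at 1 year, against 1.73 FPKM at 8 weeks. However, the 4-week pool held 70.7 FPKM of Oxt and the injected 10-week pool 15.9 FPKM. Pmch, the precursor of melanin-concentrating hormone, was at 2.98 FPKM at 1 year, against 0.13 FPKM at 8 weeks. Of 7 blood genes, Alas2, Hba-a1 and Hbb-b1 rose and Hbb-b2 fell. Alas2 changed by 0.68, but by 0.57 with length bins subtracted and by −0.58 against the 4-week pool. The globin gene listed as Beta-s, outside that list, stood at 253 FPKM at 1 year, against 89.4 FPKM at 8 weeks and 295 FPKM at 4 weeks. The globin rows share reads with near-identical copies, so single globin values are uncertain.

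Of 22 precursor and newly formed oligodendrocyte genes, 0 rose and 3 fell, 18 lay below 0, and the median was −0.26. Gpr17, which marks the newly formed stage, stood at 36.6 FPKM at 4 weeks, 22.4 FPKM at 8 weeks, 14.7 FPKM in the injected 10-week pool and 9.40 FPKM at 1 year. Each later pool was lower than the one before it, and the change between 1 year and 8 weeks was −1.17. Its listed position is also that of another row, so its value may hold shared reads. Ncan, the proteoglycan neurocan, stood at 53.9, 50.05, 30.5 and 26.8 FPKM in the same order of ages, with a change of −0.87. Enpp6, another gene of newly formed oligodendrocytes, stood at 9.35, 5.76, 2.05 and 3.45 FPKM and fell by 0.60, or by 0.51 with length bins subtracted. Pdgfra, the growth factor receptor of the precursor cells themselves, was nearer to level, at 11.8 FPKM at 1 year, against 14.02 FPKM at 8 weeks. Bmp4, a growth factor made by cells committed to the lineage, stood at 0.75 FPKM at 1 year, against 1.59 FPKM at 8 weeks, just within the limit at −0.56. Rnf122, a ubiquitin ligase gene outside the lists that was among the 10 largest falls, stood at 9.12, 4.19, 2.09 and 1.68 FPKM from 4 weeks to 1 year. With length bins subtracted the list median was −0.14.

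Mature oligodendrocyte and myelin genes split evenly. Of 37 tested, 4 rose and 4 fell, with a median of 0.07. The genes that rose included Apod, which encodes the lipid carrier apolipoprotein D. Apod stood at 92.6 FPKM at 4 weeks, 92.4 FPKM at 8 weeks, 103 FPKM in the injected 10-week pool and 173 FPKM at 1 year, and changed by 0.89. Il33, an alarmin cytokine gene that mature oligodendrocytes express in mouse brain, stood at 10.8, 31.5, 23.7 and 58.3 FPKM in the same order, with a change of 0.87. Hapln2, which encodes a link protein of the matrix at nodes of Ranvier, stood at 14.1, 15.6, 15.1 and 29.5 FPKM, with a change of 0.88. For all 3 genes the 1-year pool was the highest of the 4 wild-type pools. For CHL2 at 1 year minus R6/1 at 8 weeks, Apod changed by 0.45, Il33 by 0.24 and Hapln2 by 0.32, all within the limit. The fourth gene that rose was Nkx6-2, a transcription factor of myelinating cells, at 0.60, or 0.47 with length bins subtracted and −0.17 against the 4-week pool.

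The genes that fell were Gsn, Enpp2, Ugt8a and Tspan2. Ugt8a, the enzyme that makes galactosylceramide for myelin, stood at 73.4 FPKM at 4 weeks, 41.3 FPKM at 8 weeks, 26.7 FPKM in the injected 10-week pool and 26.0 FPKM at 1 year. Tspan2, a tetraspanin of oligodendrocytes, stood at 131, 76.9, 42.4 and 49.98 FPKM in the same order. Gsn, the actin-severing protein gelsolin, stood at 146, 63.6, 51.6 and 37.5 FPKM. In each of these the 4-week pool was the highest and most of the difference in FPKM between 1 year and 4 weeks was already present at 8 weeks. Tspan2 changed by −0.61, or by −0.57 with length bins subtracted. Enpp2, which encodes autotaxin and is also a choroid plexus gene, behaved otherwise, at 207, 403, 152 and 255 FPKM. The structural myelin genes Mbp and Mog lay within 1.5-fold of their 8-week level. Mbp, myelin basic protein, stood at 2579 FPKM at 1 year, against 2461 FPKM at 8 weeks and 3824 FPKM at 4 weeks. Mog, a glycoprotein of the outer myelin surface, stood at 76.8 FPKM at 1 year, against 91.2 FPKM at 8 weeks and 164 FPKM at 4 weeks. Against the 4-week pool, which changes only the younger side, the list median was −0.26 in place of 0.07.

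**Figure D3:**
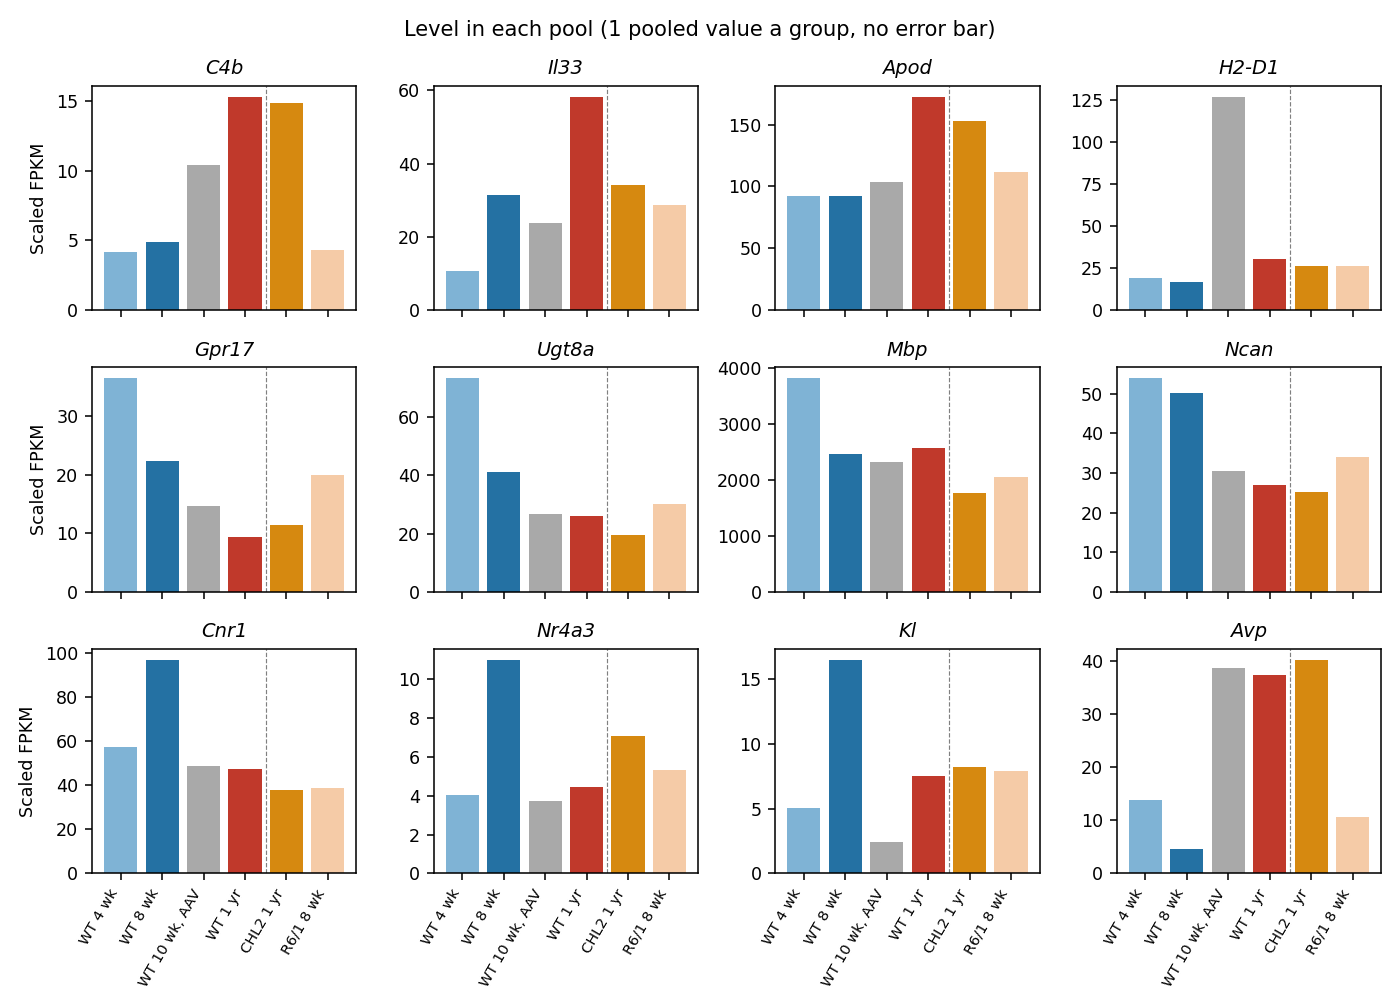
Scaled FPKM of 12 genes in each pool: wild type at 4 weeks, 8 weeks, 10 weeks with control AAV and 1 year, then CHL2 at 1 year and R6/1 at 8 weeks right of the dashed line. C4b and Apod are high in both 1-year pools, Gpr17 and Ugt8a are highest at 4 weeks, and Cnr1, Nr4a3 and Kl are highest in the wild-type 8-week pool.

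Astrocyte genes changed little. Of 24 tested, 0 rose and 1 fell, with a median of −0.08. The single fall was Slc1a2, the main astrocytic glutamate transporter, at 226 FPKM at 1 year, against 361 FPKM at 8 weeks, a change of −0.67 that was −0.41 with length bins subtracted. Aqp4, the water channel of astrocyte end feet, stood at 19.8 FPKM at 1 year, against 28.5 FPKM at 8 weeks, a change of −0.50. Of 19 reactive astrocyte genes, 1 rose and 1 fell, with a median of 0.14. Gfap stood at 79.8 FPKM at 1 year, against 58.6 FPKM at 8 weeks, a change of 0.44 within the limit. Serpina3n, a secreted protease inhibitor of reactive astrocytes, stood at 7.29 FPKM at 1 year, against 4.35 FPKM at 8 weeks. Its change of 0.63 was 0.52 with length bins subtracted, and the injected 10-week pool held 42.8 FPKM. Nes, the filament gene nestin, was the one that fell, at 1.99 FPKM at 1 year, against 3.82 FPKM at 8 weeks, a change of −0.69 that was −0.54 with length bins subtracted.

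The complement gene C4b was among the 10 largest rises. C4b, which encodes complement component 4 (mm9 chr17:34865325-34880842), stood at 4.20 FPKM at 4 weeks, 4.90 FPKM at 8 weeks, 10.4 FPKM in the injected 10-week pool and 15.3 FPKM at 1 year. Its change of 1.47 was 1.58 with length bins subtracted. Its near-identical neighbour C4a stood at 3.30 FPKM at 1 year, against 1.03 FPKM at 8 weeks, and reads shared between the 2 copies make each value uncertain. In the mutant pools C4b stood at 14.8 FPKM in CHL2 at 1 year, against 4.31 FPKM in R6/1 at 8 weeks, and C4a at 3.13 FPKM, against 0.95 FPKM. Of 17 complement genes, 3 rose and 0 fell, and the median was 0.13. The 3 were C4b, C4a and C1qb. C1qb, a chain of C1q, stood at 75.4 FPKM at 1 year, against 46.2 FPKM at 8 weeks, a change of 0.69 that was 0.49 with length bins subtracted. C1qa stood at 64.8 FPKM at 1 year, against 43.8 FPKM at 8 weeks, a change of 0.55 within the limit. The injected 10-week pool held 76.9 FPKM of C1qb and 88.3 FPKM of C1qa, both above the 1-year level.

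Microglial genes rose in part. Of 26 homeostatic microglia genes, 3 rose and 0 fell, with a median of 0.14. The 3 were Ctss, Tyrobp and Trem2. Ctss, the lysosomal protease cathepsin S, stood at 95.9 FPKM at 1 year, against 52.8 FPKM at 8 weeks. Tyrobp, the signalling adaptor of Trem2, stood at 45.3 FPKM at 1 year, against 28.6 FPKM at 8 weeks, a change of 0.64 that was 0.39 with length bins subtracted. Trem2, a lipid-sensing receptor, stood at 20.6 FPKM at 1 year, against 13.2 FPKM at 8 weeks, a change of 0.61 that was 0.54 against the 4-week pool. The injected 10-week pool stood above 1 year for all 3, with Ctss at 110 FPKM, Tyrobp at 47.2 FPKM and Trem2 at 22.8 FPKM. The purinergic receptor P2ry12, a defining gene of homeostatic microglia, was level, at 20.8 FPKM at 1 year, against 20.5 FPKM at 8 weeks. Cx3cr1, the fractalkine receptor, stood at 17.2 FPKM at 1 year, against 21.2 FPKM at 8 weeks.

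Of 21 genes of the disease-associated microglial state, 4 rose and 0 fell, 19 lay above 0, and the median was 0.25. Cd52, a small surface glycoprotein of leukocytes, stood at 3.38 FPKM at 4 weeks, 2.21 FPKM at 8 weeks, 12.8 FPKM in the injected 10-week pool and 6.64 FPKM at 1 year, a change of 1.25. Lyz2, the lysozyme of myeloid cells, stood at 3.77, 3.53, 8.84 and 8.99 FPKM in the same order, a change of 1.14. Spp1, which encodes osteopontin, stood at 2.63, 6.72, 5.01 and 12.1 FPKM, a change of 0.76. B2m was the fourth. Few markers of other blood-derived cells could be tested. Of 23 T, B and plasma cell genes 2 could be tested and 0 changed by 1.5-fold, and of 16 border macrophage and monocyte genes 4 could be tested, again with 0 changed. Chemokine and cytokine genes numbered 15, of which 1 rose, the Il33 described above.

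Most antigen presentation and interferon-stimulated genes lay above 0, where 7323 of all 14090 genes lay. Of 23 MHC class I genes, 5 rose and 0 fell, 19 lay above 0, and the median was 0.41. After length bins the median was 0.29 and 2 were past the limit. B2m, the light chain of MHC class I, stood at 129 FPKM at 1 year, against 73.9 FPKM at 8 weeks. H2-D1, a classical heavy chain, stood at 30.2 FPKM at 1 year, against 16.9 FPKM at 8 weeks. H2-K1, the other classical heavy chain, stood at 21.6 FPKM at 1 year, against 13.6 FPKM at 8 weeks. Psmb8, an immunoproteasome subunit that cuts peptides for display, stood at 4.53 FPKM at 1 year, against 2.18 FPKM at 8 weeks. H2-T23, a non-classical heavy chain, was the fifth, at 9.62 FPKM at 1 year, against 5.98 FPKM at 8 weeks. With length bins subtracted, B2m changed by 0.55 and H2-K1 by 0.51, both within the limit, as was H2-T23 at 0.55, while H2-D1 changed by 0.69 and Psmb8 by 0.67. The heavy chains belong to a family of similar sequences, so reads may be shared between them. The injected 10-week pool held far more of these RNAs than either age, with H2-D1 at 127 FPKM and B2m at 227 FPKM. All 9 tested genes of MHC class II presentation lay above 0, and 2 rose, Ctss and H2-DMb2. The class II chain H2-Ab1 was low in both ages. It stood at 0.86 FPKM at 1 year, against 0.51 FPKM at 8 weeks and 46.1 FPKM in the injected 10-week pool.

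Of 41 interferon-stimulated genes, 6 rose and 0 fell, 37 lay above 0, and the median was 0.26. Subtraction of length bins left a median of 0.20, with 3 past the limit. Ifit3, an antiviral RNA-sensing partner, stood at 2.39 FPKM at 4 weeks, 2.29 FPKM at 8 weeks, 8.21 FPKM in the injected 10-week pool and 6.12 FPKM at 1 year, a change of 1.11. Bst2, the tethering protein tetherin, stood at 8.85 FPKM at 1 year, against 5.01 FPKM at 8 weeks, a change of 0.71 that was 0.46 with length bins subtracted. Ifit1 stood at 1.76 FPKM at 1 year, against 0.73 FPKM at 8 weeks, and Oasl2, a protein related to the oligoadenylate synthetases, at 2.16 FPKM at 1 year, against 0.99 FPKM at 8 weeks. The other genes that rose were Isg20 and Isg15, at 0.63 and 0.62, or 0.43 and 0.37 with length bins subtracted. These are low levels, where the added 1 understates the ratio.

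The promoters of these genes can be read for the interferon-stimulated response element, whose core is GAAA, any 2 bases (N) and a second GAAA. Promoters were taken from RefSeq on GRCm38.p6, from 250 bases before to 50 after each gene's start, and searched on both strands. The core occurred in 1131 of 32851 promoters (3.44%), or, counted by gene, in 1079 of 27025 genes (3.99%). By gene, it occurred in 24 of the 51 matched MHC class I and interferon-stimulated members (47.1%), and in 6 of the 11 that rose (54.5%), namely B2m, Bst2, H2-T23, Ifit1, Ifit3 and Isg15. It was not found in this window of H2-D1, H2-K1, Isg20, Oasl2 and Psmb8. The genes that rose are part of the matched members, and their share was near that of all matched members. Whether the core bears on the rise was not tested. The match is a description of these letters and not a shown binding site. The promoters of Ifit3 (chr19:34583279-34583578, plus strand), Bst2 (chr8:71537423-71537722, minus strand) and B2m (chr2:122147437-122147736, plus strand) are shown because these genes rose and hold the core. Each is written along the gene's own strand, with matches to the core in capitals; TTTC, any 2 bases and TTTC is the same core on the other strand, and the run of capitals in Bst2 holds a pair of overlapping matches.
Ifit3: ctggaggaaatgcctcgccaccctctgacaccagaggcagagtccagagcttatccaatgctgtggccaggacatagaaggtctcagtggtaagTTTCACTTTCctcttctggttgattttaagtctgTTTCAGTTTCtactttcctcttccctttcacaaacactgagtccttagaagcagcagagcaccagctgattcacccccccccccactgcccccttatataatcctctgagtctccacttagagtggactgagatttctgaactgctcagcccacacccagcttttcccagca
Bst2: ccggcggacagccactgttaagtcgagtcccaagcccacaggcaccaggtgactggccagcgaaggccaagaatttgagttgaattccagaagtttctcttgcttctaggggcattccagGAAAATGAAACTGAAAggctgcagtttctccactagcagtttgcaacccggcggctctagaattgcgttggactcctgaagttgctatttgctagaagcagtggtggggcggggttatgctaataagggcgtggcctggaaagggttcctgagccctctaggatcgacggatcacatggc
B2m: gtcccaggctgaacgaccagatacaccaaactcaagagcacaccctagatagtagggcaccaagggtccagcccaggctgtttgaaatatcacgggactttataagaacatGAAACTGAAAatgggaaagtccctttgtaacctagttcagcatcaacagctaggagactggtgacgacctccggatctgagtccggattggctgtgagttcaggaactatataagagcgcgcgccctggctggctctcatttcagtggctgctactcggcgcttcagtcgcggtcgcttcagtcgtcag
Ifit3 holds the core on the strand opposite to the gene at both of its sites, and B2m and Bst2 hold it on the gene's strand. The change of the 3 genes between 1 year and 8 weeks was 1.11 for Ifit3, 0.71 for Bst2 and 0.80 for B2m. With length bins subtracted it was 0.99, 0.46 and 0.55, the last 2 within the limit.

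Projection neuron genes were lower at 1 year than at 8 weeks. Of 40 genes shared by both projection neuron types, 0 rose and 11 fell, 39 lay below 0, and the median was −0.38. Subtraction of length bins left a median of −0.35, with 6 past the limit. Cnr1, the cannabinoid receptor, stood at 57.1 FPKM at 4 weeks, 96.9 FPKM at 8 weeks, 48.5 FPKM in the injected 10-week pool and 47.4 FPKM at 1 year, a change of −1.02. Camk4, a calcium-dependent kinase of the nucleus, stood at 44.2, 58.3, 30.03 and 34.6 FPKM in the same order. Rgs4, which shortens signalling by G proteins, stood at 256, 311, 246 and 191 FPKM. For Cnr1, Camk4 and Rgs4 the 8-week pool stood above all other wild-type pools, the 4-week pool included. Pde10a, the cyclic nucleotide phosphodiesterase of these neurons, stood at 143 FPKM at 1 year, against 216 FPKM at 8 weeks and 156 FPKM at 4 weeks. Its change of −0.59 was −0.38 with length bins subtracted, and the injected 10-week pool held 55.6 FPKM. Against the 4-week pool, Camk4 changed by −0.34, Rgs4 by −0.42 and Cnr1 by −0.26, all within the limit, and the list median was −0.12. Against the injected 10-week pool the list median was 0.26 over 39 genes, the other way. The choroid plexus and cortical medians, at −0.59 and −0.44, lay on the same side as this list, and their part in the result was not tested.

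Genes that mark one projection neuron type did not pass the limit. Of 12 direct-pathway genes and 11 indirect-pathway genes, 0 rose and 0 fell, with medians of −0.21 and −0.10. Drd1a, the dopamine receptor of the direct pathway, stood at 59.5 FPKM at 1 year, against 70.5 FPKM at 8 weeks. Tac1, the substance P precursor of the same neurons, stood at 230 FPKM at 1 year, against 160 FPKM at 8 weeks, a change of 0.52. Adora2a, the adenosine receptor of the indirect pathway, stood at 103 FPKM at 1 year, against 132 FPKM at 8 weeks.

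Of 38 immediate-early genes, which neurons induce with activity, 1 rose and 8 fell, with a median of −0.20. Nr4a3, a nuclear receptor, stood at 4.02 FPKM at 4 weeks, 11.01 FPKM at 8 weeks, 3.73 FPKM in the injected 10-week pool and 4.43 FPKM at 1 year, a change of −1.15. Fosl2, a partner in the AP-1 factor, stood at 7.04, 12.2, 9.44 and 5.55 FPKM in the same order, a change of −1.01. Homer1, whose short form is induced at synapses, stood at 31.1 FPKM at 1 year, against 56.8 FPKM at 8 weeks, and Nr4a2, a nuclear receptor related to Nr4a3, at 7.43 FPKM at 1 year, against 13.95 FPKM at 8 weeks. Others of the family did not follow: Npas4 rose, at 13.8 FPKM at 1 year, against 8.38 FPKM at 8 weeks, and Fos stood at 20.2 FPKM at 1 year, against 20.8 FPKM at 8 weeks. The median was −0.30 with length bins subtracted and −0.02 against the 4-week pool.

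Among 24 glutamate receptor genes, 0 rose and 2 fell, with a median of −0.24. The falls were subunits of the NMDA receptor. Grin2b stood at 7.38 FPKM at 4 weeks, 17.9 FPKM at 8 weeks and 7.25 FPKM at 1 year, a change of −1.19. Grin2a stood at 3.07 FPKM at 4 weeks, 7.23 FPKM at 8 weeks and 3.003 FPKM at 1 year, a change of −1.04. In both, the 4-week and 1-year levels were close and the 8-week level stood apart. None of the 19 GABA and glycine receptor genes passed the limit (0 rose and 0 fell), with a median of −0.21. Of 41 synaptic vesicle and release genes, 1 rose and 3 fell, with a median of −0.16. The falls were Slc17a7, the active-zone scaffold Bsn and the vesicle protein Sv2b, and the rise was Vamp1, a vesicle fusion protein. Bsn stood at 24.3 FPKM at 1 year, against 41.6 FPKM at 8 weeks, a change of −0.75 that was −0.49 with length bins subtracted. Sv2b changed by −0.63, or by −0.52 with length bins subtracted. Vamp1 stood at 67.0 FPKM at 1 year, against 43.4 FPKM at 8 weeks.

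Interneuron genes lay above 0 in 20 of 23 cases, with 5 rises, 0 falls and a median of 0.30. The 5 were Lhx8, Pvalb, Zic1, Ngfr and Calb2, and 3 of the list were past the limit with length bins subtracted. Calb2, a calcium buffer, changed by 0.64, but by 0.48 with length bins subtracted and by −0.36 against the 4-week pool. Pvalb, the calcium buffer of fast-spiking interneurons, stood at 54.2 FPKM at 1 year, against 32.5 FPKM at 8 weeks, a change of 0.72 that was 0.47 with length bins subtracted. Lhx8, a transcription factor of cholinergic neurons, stood at 7.11 FPKM at 1 year, against 3.79 FPKM at 8 weeks, and was at 5.90 FPKM at 4 weeks. Zic1, which also marks septal cells, stood at 8.87 FPKM at 1 year, against 5.14 FPKM at 8 weeks and 16.6 FPKM at 4 weeks. The hypothalamic, septal and preoptic list, which also holds Zic1, had a median of 0.44 in the same pools, and its part in the interneuron result was not tested. Gad1, the GABA-synthesizing enzyme of nearly all striatal neurons, was within 1.5-fold, at 207 FPKM at 1 year, against 184 FPKM at 8 weeks.

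Of 32 immature neuron and developmental genes, 0 rose and 3 fell, 25 lay below 0, and the median was −0.12. Ccnd2, a cyclin of dividing precursors, stood at 24.2 FPKM at 4 weeks, 27.7 FPKM at 8 weeks, 12.4 FPKM in the injected 10-week pool and 13.1 FPKM at 1 year. It changed by −1.03, and its listed position is also that of another row. Marcksl1, an actin-regulating protein of growing neurites, stood at 97.0, 57.3, 75.9 and 36.8 FPKM in the same order. Igf2, a growth factor that is also made by choroid plexus and meninges, stood at 14.1 FPKM at 1 year, against 27.0 FPKM at 8 weeks. Dcx, the microtubule protein of migrating neuroblasts, stood at 5.09 FPKM at 1 year, against 6.45 FPKM at 8 weeks. Sox11, a transcription factor of immature neurons, stood at 2.77 FPKM at 1 year, against 4.46 FPKM at 8 weeks. Both of these lay within the limit. Proliferation genes also lay within it, with 0 of 16 changed. Of these, 11 lay below 0, and the median was −0.15, or −0.48 against the 4-week pool. Many levels were low, where the added 1 understates the ratio. Rrm2 stood at 0.72 FPKM at 1 year, against 1.46 FPKM at 8 weeks, a change of −0.51 that was −0.63 with length bins subtracted.

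Vascular and matrix genes changed in few cases. None of the 26 endothelial genes rose or fell (0 of each), although 20 lay below 0 and the median was −0.25. Of 16 pericyte and smooth muscle genes, 0 rose and 1 fell, Rgs5, at 18.7 FPKM at 1 year, against 31.4 FPKM at 8 weeks. Of 26 genes on the collagen and matrix list, 3 rose (Col11a1, Mgp and Col6a1) and 2 fell (Igf2 and Igfbp2). The list median was 0.00. Igf2 is the growth factor described above, and neither gene that fell is a collagen. Mgp changed by 0.78, or by 0.53 with length bins subtracted. Col6a1 stood at 49.6 FPKM at 1 year, against 29.4 FPKM at 8 weeks. Col1a1, the fibrillar collagen of meninges and fibroblasts, was low in both, at 0.81 FPKM at 1 year, against 1.05 FPKM at 8 weeks. Of 14 perineuronal net genes, 3 fell and 1 rose; besides Ncan and Hapln2 these were the tenascins Tnr and Tnc. Tnr stood at 13.3 FPKM at 1 year, against 23.03 FPKM at 8 weeks, a change of −0.75 that was −0.49 with length bins subtracted, and Tnc changed by −0.70, or by −0.49.

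Ribosomal protein genes have short transcripts, and the part of the length trend in their change was not tested. Of 72, 19 rose and 0 fell, with a median of 0.37 that was 0.19 with length bins subtracted, when 8 were at least 1.5-fold higher and 2 lower. Rpl38 stood at 67.9 FPKM at 1 year, against 28.4 FPKM at 8 weeks. Of 75 nuclear genes of oxidative phosphorylation, 73 lay above 0 with a median of 0.28, which was 0.08 with length bins subtracted, while 2 rose (Atp5h and Uqcrq) and 1 fell (Uqcrb). Uqcrq changed by 0.64, or by 0.48 with length bins subtracted. Reads shared between ribosomal protein genes and their pseudogenes make single values uncertain.

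**Figure D4:**
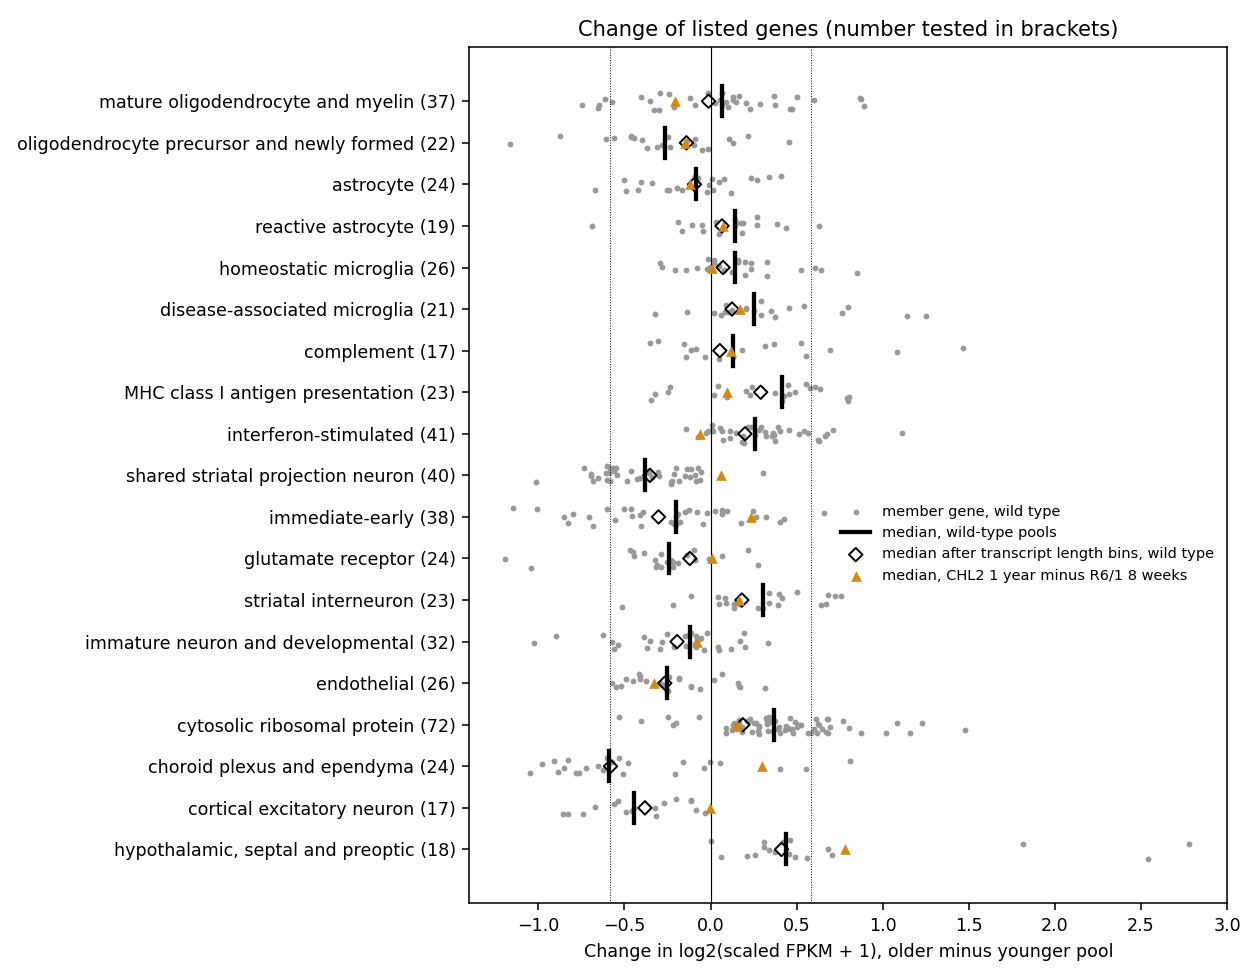
Change of each listed gene between WT 1 year and WT 8 weeks (grey points), with the list median (bar), the median after subtraction of length bins (diamond) and the median of CHL2 1 year minus R6/1 8 weeks (triangle); dotted lines mark 1.5-fold. MHC class I, interferon-stimulated and interneuron medians lie right of 0 and shared projection neuron, choroid plexus and cortical medians left of it, and the triangles lie apart from the bars for projection neuron, immediate-early, choroid plexus and hypothalamic genes.

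The 2 mutant pools of the same tables, CHL2 at 1 year and R6/1 at 8 weeks, share no library with the wild-type pools and repeat the difference in age, colony and table with model alleles added. Between them, 187 genes were at least 1.5-fold higher (1.33%) and 29 lower (0.206%). Of the 202 genes that rose in wild type, 52 (25.7%, and 27.8% of the 187) were past the limit the same way in the mutant pools and 0 the other way. Of the 212 that fell in wild type, 10 (4.72%, and 34.5% of the 29) were past the limit the same way and 3 the other way. The same sign was seen for 190 of the 202 rises (94.1%, against 47.3% of all genes with a higher level) and for 162 of the 212 falls (76.4%, against 52.7% of all genes with a lower level). The length trend was present in the mutant pools too, with a Spearman correlation of −0.22.

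Among the 62 genes past the limit the same way in both contrasts were C4b, Lyz2, Neat1, Serpina3n and Col6a1, which were higher, and Gpr17, Ugt8a, Tspan2, Mif and Rpl22l1, which were lower. Lyz2 stood at 10.96 FPKM in CHL2 at 1 year, against 4.04 FPKM in R6/1 at 8 weeks. Gpr17 stood at 11.5 FPKM in CHL2 at 1 year, against 19.96 FPKM in R6/1 at 8 weeks, and Ugt8a at 19.4 FPKM, against 30.1 FPKM. Mif, a cytokine gene, was lower in both contrasts, at 8.22 FPKM in wild type at 1 year, against 17.3 FPKM at 8 weeks, and at 7.01 FPKM in CHL2 at 1 year, against 15.7 FPKM in R6/1 at 8 weeks. Gfap was past the limit between the mutant pools, at 84.7 FPKM in CHL2 at 1 year, against 50.9 FPKM in R6/1 at 8 weeks. H2-D1 was level there, at 26.5 FPKM in both, and the MHC class I median was 0.10 and the interferon-stimulated median −0.06.

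List medians of the mutant contrast differed from the wild-type ones most among neuronal and neighbouring-tissue genes; the difference between contrasts was not tested. The shared projection neuron median was 0.06 in the mutant pools, with 2 genes higher and 0 lower past the limit, against −0.38 in wild type. The 8-week pools differed in level, as these genes summed to 8086 FPKM in wild type and 3953 FPKM in R6/1. At 1 year the sums were 6213 FPKM in wild type and 4029 FPKM in CHL2. Cnr1 stood at 37.6 FPKM in CHL2 at 1 year, against 38.6 FPKM in R6/1 at 8 weeks. The immediate-early median was 0.23 in the mutant pools, against −0.20 in wild type, and the choroid plexus median 0.30, against −0.59. Choroid plexus genes summed to 2073 FPKM in wild type and 875 FPKM in R6/1 at 8 weeks. Precursor oligodendrocyte genes had a median of −0.15 in the mutant pools, against −0.26 in wild type. The mature oligodendrocyte and myelin median was −0.21 in the mutant pools, with 1 gene higher and 6 lower past the limit, against 0.07 in wild type. Tspan2 stood at 31.9 FPKM in CHL2 at 1 year, against 64.1 FPKM in R6/1 at 8 weeks.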

How the data were processed

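Total RNA from mouse striatum was made into TruSeq libraries, per the labels' protocols. The tools named are Cuffdiff, Cufflinks, Bowtie and TopHat, with the build mm9, per the submitters' processing notes. For versions, gene annotation and strandedness: not given in the sources used here. FPKM values were deposited by the authors, 1 pooled value per group and gene, with no column per library, so depth and the spread between libraries are unknown. From these, columns were scaled to a common median over shared rows (14402 rows at 1 year, 14320 at 8 weeks, 14160 shared), and log2(FPKM + 1) differences were taken with Python 3.11.15, pandas 2.3.3 and numpy 2.4.6. The added 1 understates changes of low genes. The 4-week and 10-week pools were scaled to the 8-week pool over rows shared with it. The tables were made separately, so levels set across them rest on this scaling. Starts and ends are as listed on mm9. In 13.1% of genes the listed position is also that of another row, and reads may be shared. They include Gpr17, Ccnd2, Ppp1r1b, P2ry12, Kcnj13, Gad1, Zmat3 and Rps21.

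No test was made, and rises and falls are calls past 1.5-fold. A run on simulated data, with 2-fold changes planted in well-expressed genes and little noise, checked the arithmetic only. It says nothing on low genes or on the spread between animals. Transcript lengths are the longest transcript in GENCODE M21, matched for 98.9% of genes, and were used for lengths only. The planned leave-one-out and replicate-block fits need a value per library. The comparison, its members and the 44 gene lists were chosen with earlier results of these data known. Named genes were the 10 largest rises and 10 largest falls among genes not sharing a position, the 4 members of each list with the largest change, the members nearest the limit, and a fixed set of cell type genes. Further members were named after their values were seen: Tspan2, Ugt8a, Enpp2, Nkx6-2, H2-T23, Isg20, Isg15, Npas4, Fos, Neat1, Tmem212 and Igfbp2. Alternatives were no scaling, upper quartile scaling, the median ratio set to 0, a pseudocount of 0.1, other filters, 2-fold, transcript length bins, rows sharing a position left out, and the 4-week pool in place of the 8-week pool, which was chosen after seeing the data. Some named genes are not reported here.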

Additional observations from a re-analysis of the deposited data

How the results depend on the processing

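No paired analysis was possible because each group is a single pooled value with no replicate, and leaving out single replicates could not be run for the same reason. Depth is unknown, so low genes are of unknown precision. The counts of genes at least 1.5-fold higher and lower, 202 and 212, were 330 and 133 without scaling, 462 and 365 with a pseudocount of 0.1, and 32 and 11 at 2-fold; 122 were higher with length bins subtracted. Without scaling the median of all genes was 0.08. The 62 genes shared with the mutant pools became 177 with the pseudocount of 0.1 and 15 at 2-fold. The complement median of 0.13 was 0.25 with the pseudocount of 0.1 and 0.32 at a mean of at least 2 FPKM, and the interferon-stimulated median of 0.26 was 0.38 and 0.36. With length bins subtracted, the precursor oligodendrocyte median was −0.14, MHC class I 0.29 and immediate-early −0.30.

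With the 4-week pool in place of the 8-week pool, an alternative chosen after seeing the data, the medians were −0.26 for mature oligodendrocyte and myelin, −0.49 for precursor oligodendrocyte, −0.23 for astrocyte, −0.12 for shared projection neuron, −0.025 for immediate-early, −0.43 for immature neuron and 0.027 for synaptic vesicle genes. The choroid plexus and hypothalamic medians changed sign, to 0.28 and −0.49. Of the named genes, 122 kept direction and side of the limit, 39 dropped within it, 14 passed it and 13 reversed: Alas2 −0.58, Beta-s −0.22, Calb2 −0.36, Cartpt −0.47, Cldn2 0.25, F5 0.37, Hba-a1 −0.046, Kcnj13 0.95, Kl 0.49, Nr4a3 0.11, Oxt −2.18, Prkcd −0.088 and Zic1 −0.83. With length bins subtracted, 159 kept both, 25 dropped within the limit, 3 passed it and 0 reversed. The cause of these differences was not tested.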

Other observations

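Pisd-ps2, a pseudogene, stood at 17.8 FPKM at 4 weeks, 17.2 FPKM at 8 weeks, 14.6 FPKM in the injected 10-week pool and 40.2 FPKM at 1 year. In CHL2 at 1 year it stood at 36.5 FPKM, against 17.4 FPKM in R6/1 at 8 weeks, so both pools listed with CHL2 were higher than the 4 pools listed with R6/1 that are given here. Rpl22l1, a paralog of a ribosomal protein gene, ran the other way, at 8.95 FPKM in wild type at 1 year, against 18.2 FPKM at 8 weeks, and at 8.90 FPKM in CHL2 at 1 year, against 18.1 FPKM in R6/1 at 8 weeks. Its injected 10-week pool stood at 5.84 FPKM. Neat1, a nuclear long noncoding RNA, stood at 22.4 FPKM at 4 weeks, 49.6 FPKM at 8 weeks, 44.6 FPKM in the injected 10-week pool and 92.4 FPKM at 1 year, and at 66.0 FPKM in CHL2 at 1 year, against 42.4 FPKM in R6/1 at 8 weeks. Age and source colony cannot be told apart for these genes.

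Of 23 cholesterol synthesis genes, 0 rose and 0 fell and 18 lay below 0, with a median of −0.16, which was −0.39 against the 4-week pool. Of 20 clock genes and 43 chromatin regulator genes, 0 rose, and the falls numbered 0 and 1. Of 17 senescence and p53 target genes, 0 rose and 1 fell, Zmat3, at 13.3 FPKM at 1 year, against 20.8 FPKM at 8 weeks, a change of −0.60 that was −0.40 with length bins subtracted. Of 42 lysosome genes, 1 rose and 0 fell, with a median of 0.09.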
